A study of Caenorhabditis elegans with 6 samples.

Results

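The body wall muscle of C. elegans was examined through 8 sarcomere genes chosen by name: the myosin heavy chain genes unc-54 and myo-3, the paramyosin gene unc-15, the giant titin-family genes unc-22, unc-89 and ttn-1, the perlecan gene unc-52 and the tropomyosin gene lev-11. They were found by symbol among 20190 genes with deposited counts, and all 8 were measured in all 6 libraries and passed the low-count filter. Messenger RNA had been sequenced from whole larvae in the first larval stage (L1), starved overnight in M9 buffer and then grown for 4 hours at 25 °C, with 2 libraries for each of 3 strains. HW3826, also given as VT1367, carries maIs105, an array with the col-19 promoter driving GFP. GR1395, which 1 label spells GR1935, carries mgIs49, an array with the mlt-10 promoter driving a PEST-tagged GFP together with a ttx-3 GFP reporter. N2 is the wild type and carries neither array. The series is about transgene arrays and their bearing on a phenotype of the gene myrf-1, and the comparisons are each array strain against N2 and HW3826 against GR1395. Each array strain is 1 line, so effects of the array and of any other difference in strain background cannot be told apart. Nothing in the labels ties the libraries of a strain to separate cultures, and p-values then measure only their spread, possibly a technical one.

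In the body wall muscle of the worm, thick filaments of myosin slide along thin filaments of actin. The thick filament is built on a core of paramyosin, with the minor myosin MYO-3 in its middle and the major myosin UNC-54 along its arms. Giant proteins with immunoglobulin repeats and kinase domains, such as twitchin, attach to it, and the M-line protein UNC-89 (obscurin) holds thick filaments in register. Thin filaments carry tropomyosin and troponin, which set when myosin may bind, and are anchored at dense bodies. Dense bodies and M-lines in turn connect through the cell membrane to perlecan in the basement membrane. Counts from whole animals cannot tell fewer muscle cells from less RNA per muscle cell.

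Library totals were between 42593688 and 54957641 counts, and the 8 genes together took 0.884% and 0.872% of the counts in HW3826, 0.891% and 0.866% in GR1395 and 0.786% and 0.731% in N2. Levels are given as CPM, a library's counts relative to its total after scaling by the trimmed mean of M values (TMM). Of 15024 genes tested with the edgeR quasi-likelihood test, 902 passed an adjusted p of 0.05 in HW3826 against N2 and 2416 in GR1395 against N2. GR1395 against N2 gave 1192 higher and 1224 lower, or 1413 higher and 927 lower with library totals as the only scaling. In HW3826 against GR1395, 2179 passed. N2 replicate 2 stood apart by gene length: relative to the mean over libraries its median log2 level was -0.163 in the tenth of genes with the greatest width and 0.129 in the tenth with the smallest. In the other 5 libraries those medians lay between -0.078 and 0.063.

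In both HW3826 libraries, 7 of the 8 genes were above both N2 libraries, beside 24.3% of all tested genes. The exception was lev-11. The giant genes unc-22, unc-89 and ttn-1 passed the test there, by 27% to 36%. In GR1395 the myosin genes unc-54 and myo-3 and the giant ttn-1 passed, by 27% to 36%. Between the array strains unc-52 alone passed, higher in HW3826. The called members made up 3 of 8 in HW3826 against N2, all higher, where 6.0% of all tested genes were called, 3.54% higher and 2.46% lower. They were 3 of 8 in GR1395 against N2, all higher, where 16.1% were called, 7.93% higher and 8.15% lower. They were 1 of 8 in HW3826 against GR1395, where 14.5% were called, 7.33% higher and 7.17% lower. The giant genes are among the longest of the worm, and fold changes against N2 were larger in longer genes overall.

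Levels compared per length, as mean CPM per kilobase of the deposited gene width over the 6 libraries, spanned 99.8-fold within the sarcomere. unc-54 stood highest at 553, ranging from 481 to 620 over the libraries. lev-11 at 422 and unc-15 at 368 followed, and their ranges over the libraries overlapped. unc-52 at 54.7, myo-3 at 37.3 and unc-22 at 32.1 came next, and the ranges of myo-3 and unc-22 overlapped. unc-89 at 19.8 and ttn-1 at 5.54 were the lowest. In every strain unc-54, lev-11 and unc-15 held the top of this order and ttn-1 its end. By CPM without regard to length, unc-54 was number 23 of the 15024 genes and ttn-1 number 518.

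**Figure D1:**
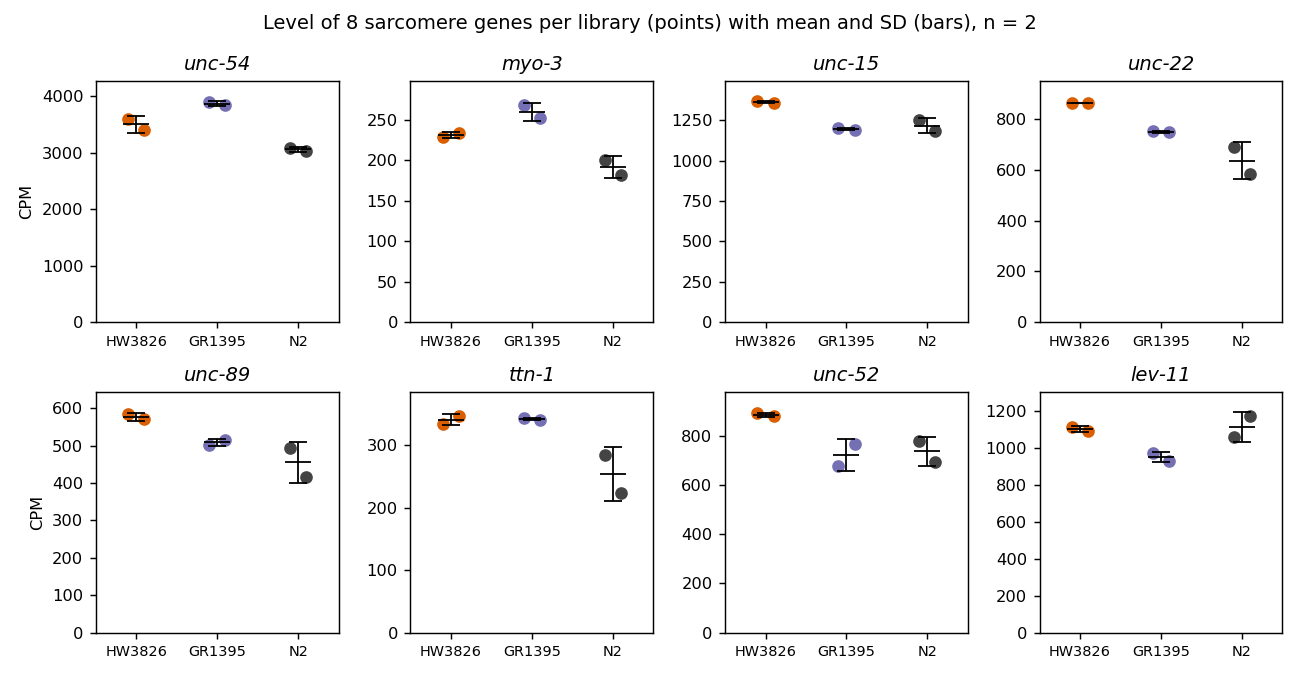
Level in CPM (vertical axes, from 0) of the 8 sarcomere genes in each library (points), with mean and SD of the 2 libraries per strain (black bars), for HW3826, GR1395 and N2. The ttn-1 libraries of HW3826 (334 and 347 CPM) and GR1395 (343 and 340 CPM) lie above those of N2 (284 and 223 CPM), and lev-11 is lowest in GR1395 (971 and 932 CPM).

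unc-54 encodes the major myosin heavy chain of body wall muscle and lies on chromosome I (14855901 to 14863482, minus strand, WBcel235). Its levels were 3609 and 3402 CPM in HW3826, 3900 and 3843 CPM in GR1395, and 3095 and 3026 CPM in N2. All array libraries were above both N2 libraries, those of GR1395 the highest. In GR1395 the mean of 3872 ± 39.9 CPM against 3060 ± 48.4 CPM in N2 (SD, n = 2 each) was a rise of 0.34 on the log2 scale (SE 0.08, adjusted p = 0.0147 by edgeR). In HW3826 the difference from N2 was 0.20 (adjusted p = 0.204). The rise in GR1395 lost its call without either HW3826 or either GR1395 library (adjusted p of at most 0.0968), while its size stayed between 0.32 and 0.35 in the 6 leave-outs.

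The gene next to unc-54 on the same strand, aex-5, a proprotein convertase gene, begins 73 bases beyond the annotated 3′ end of unc-54 (I 14850052 to 14855827). aex-5 was at 123 and 121 CPM in GR1395 against 27.9 and 29.7 CPM in N2, a rise of 2.08 (adjusted p = 2.7e-09). In HW3826 it was at 39.1 and 38.2 CPM against the same N2 values, a rise of 0.43 (adjusted p = 0.00501), which missed the threshold without HW3826 replicate 1 (adjusted p = 0.0521). The unc-54 3′ end is a common part of worm GFP vectors, and the labels do not say which 3′ ends the arrays carry. Counts per gene do not separate reads of the endogenous unc-54 locus from reads of such a vector, and the part of the arrays in the unc-54 and aex-5 counts was not tested.

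myo-3 encodes the minor myosin heavy chain at the centre of the thick filament and lies on V (12226817 to 12234343). Its levels were 229 and 234 CPM in HW3826, 268 and 252 CPM in GR1395, and 201 and 182 CPM in N2. The order of the strains was that of unc-54, with no overlap between strains. In GR1395 it rose 1.36-fold, by 0.44 (SE 0.08, adjusted p = 0.00304), and this call held in each of the 6 leave-outs (adjusted p up to 0.0424). In HW3826 it was 0.28 higher (SE 0.08), with an adjusted p of 0.057 by edgeR, and between 0.21 and 0.35 higher in the 6 leave-outs.

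unc-15 encodes paramyosin, the core protein of invertebrate thick filaments (I 7376604 to 7383197). Its levels were 1371 and 1358 CPM in HW3826, 1203 and 1194 CPM in GR1395, and 1252 and 1185 CPM in N2. GR1395 overlapped N2, and HW3826 was above both. HW3826 differed from N2 by 0.16 on the log2 scale (adjusted p = 0.279) and GR1395 by -0.02, or 0.02 with library totals as the only scaling (adjusted p = 0.866 and 0.87). Neither passed. Between the array strains the difference was 0.19 (adjusted p = 0.129), and it lay between 0.18 and 0.20 in the 6 leave-outs.

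Set against unc-54 within each library, paramyosin transcript stood lower in both GR1395 libraries than in the other 4. Per kilobase, unc-15 stood at 69.8% and 73.4% of unc-54 in HW3826, at 56.7% and 57.1% in GR1395 and at 74.4% and 72% in N2. With the length trend of each library removed, the ratios were 72% and 75.8% in HW3826, 57.8% and 57.6% in GR1395 and 73% and 67% in N2. GR1395 stood lowest in both forms, while the order of HW3826 and N2 differed between them. The uncertainty on the origin of unc-54 reads applies to the ratio. The mean of unc-15 itself was 1198 CPM in GR1395 and 1219 CPM in N2, while that of unc-54 was 3872 and 3060 CPM. A low ratio was not particular to paramyosin. With the trend removed, unc-22 stood at 5.02% and 5.2% of unc-54 in GR1395. It stood at 6.05% and 6.35% in HW3826 and 6.26% and 5.97% in N2. As counted, GR1395 (5.2% and 5.24%) overlapped N2 (5.99% and 5.2%). The ratio of myo-3 to unc-54 did not set the strains apart: it was 6.55% and 7.1% in HW3826, 7.08% and 6.76% in GR1395, and 6.69% and 6.2% in N2. No test is given for these ratios, which were chosen after the values were seen.

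**Figure D2:**
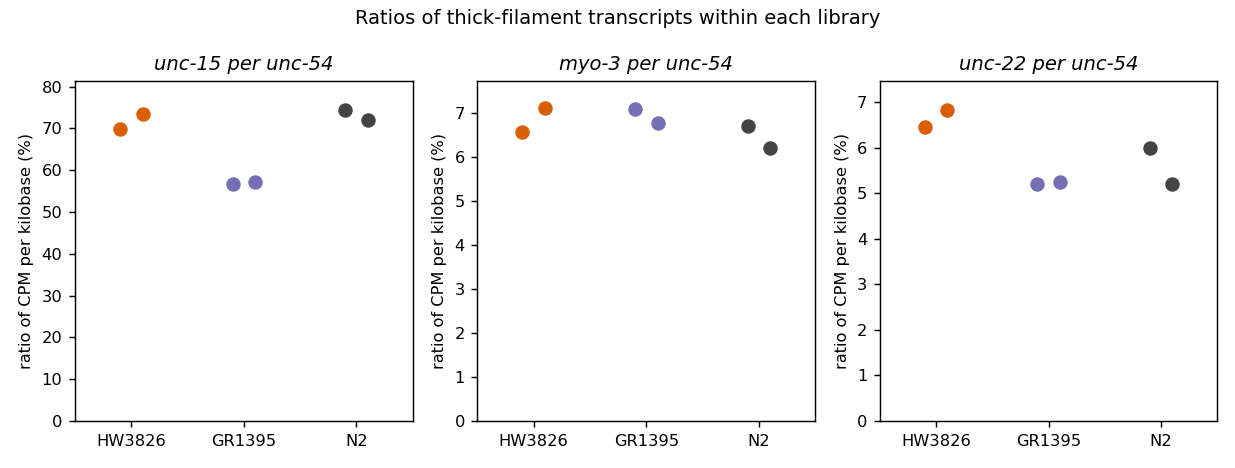
Ratio of CPM per kilobase of width (vertical axes in percent, from 0) of unc-15, myo-3 and unc-22 to unc-54 within each library (points), for HW3826, GR1395 and N2. The unc-15 ratio is 56.7% and 57.1% in GR1395 and between 69.8% and 74.4% in the other libraries, while the myo-3 ratios of the strains overlap.

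unc-22 encodes twitchin, a giant kinase of the thick filament whose loss gives constant muscle twitching (IV 11972697 to 12011007, width 23368 bases). Its levels were 864 and 862 CPM in HW3826, 753 and 748 CPM in GR1395, and 688 and 584 CPM in N2. The strains did not overlap, and the N2 libraries were further apart than those of either array strain. In HW3826 unc-22 rose by 0.44 (SE 0.09, adjusted p = 0.00961), and 1.36-fold. Leaving out either HW3826 library ended the call (adjusted p of at most 0.0864), and without N2 replicate 2 the rise was 0.33 and passed (adjusted p = 0.0258). In GR1395 the difference was 0.24 (adjusted p = 0.0799). It reached 0.36 (adjusted p = 0.00389) without N2 replicate 1 and was 0.12 without N2 replicate 2. Short stretches of unc-22 exons overlap ZK829.9 on the other strand and ZK617.26 on the same strand. Strand use in counting is not stated, and reads there cannot be assigned with certainty.

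unc-89 encodes the obscurin-like giant of the M-line (I 4035702 to 4090885, width 26001 bases). Its levels were 584 and 570 CPM in HW3826, 503 and 516 CPM in GR1395, and 494 and 416 CPM in N2. It rose by 0.34 in HW3826 (SE 0.09, adjusted p = 0.0373). That call was the weakest of the 3: of the 6 leave-outs it passed only without N2 replicate 1, with adjusted p of up to 0.215 without N2 replicate 2 or any array library, and it missed the threshold with library totals as the only scaling. In GR1395 the difference was 0.16 (adjusted p = 0.222).

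ttn-1 encodes the worm's largest titin-like protein and has the greatest width of all genes in the table, 56341 bases (V 6120909 to 6202632). Its levels were 334 and 347 CPM in HW3826, 343 and 340 CPM in GR1395, and 284 and 223 CPM in N2. Both array strains stood above N2 at nearly the same level. The rise in HW3826 was 0.43 (SE 0.10, adjusted p = 0.0255). In GR1395 it was also 0.43 (SE 0.10, adjusted p = 0.0134), against the same N2 libraries. Without N2 replicate 2, the lower of the N2 libraries, both were 0.26 and neither passed (adjusted p = 0.0699 in HW3826 and 0.0533 in GR1395). Leaving out either HW3826 library ended the HW3826 call (adjusted p of at most 0.155), and leaving out GR1395 replicate 1 ended the GR1395 call (adjusted p = 0.0816).

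unc-52 encodes perlecan, the basement membrane proteoglycan that muscle attachments need (II 14647321 to 14684456, width 14277 bases). Its levels were 891 and 879 CPM in HW3826, 675 and 766 CPM in GR1395, and 777 and 694 CPM in N2. HW3826 stood above both other strains, and GR1395 overlapped N2. In HW3826 it was 0.27 above N2 (adjusted p = 0.104) and 0.30 above GR1395 (SE 0.09, adjusted p = 0.0399). Leaving out either HW3826 library or GR1395 replicate 1 ended the call against GR1395 (adjusted p of at most 0.314), as did library totals as the only scaling. In GR1395 the difference from N2 was -0.03 (adjusted p = 0.857), or 0.01 with library totals.

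lev-11 encodes tropomyosin, which lies along the thin filament and is also made outside body wall muscle (I 14621169 to 14631094, width 2505 bases). Its levels were 1113 and 1090 CPM in HW3826, 971 and 932 CPM in GR1395, and 1058 and 1171 CPM in N2. It was the only member with both GR1395 libraries below both N2 libraries. In GR1395 its log2 difference from N2 was -0.23 (SE 0.08, adjusted p = 0.0758). That difference passed with DESeq2 (adjusted p = 0.0278), and by edgeR it lay between -0.30 and -0.15 in the 6 leave-outs. In HW3826 the difference was -0.02 (adjusted p = 0.941). The many annotated isoforms of lev-11 were counted as 1 gene.

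The count of members without overlap between strains is read against all genes. In HW3826 against N2, 7 members were higher in both libraries than in both N2 libraries and 0 were lower, where 24.3% of all tested genes were higher and 24.5% lower in this sense. In GR1395 against N2, 5 were higher and 1 was lower, where 31.0% and 28.8% of all genes were. In HW3826 against GR1395, 5 were higher and 2 lower, where 30.3% and 31.9% of all genes were. The median log2 fold change of the 8 members was 0.27 in HW3826 against N2, 0.20 in GR1395 against N2 and 0.18 in HW3826 against GR1395, beside -0.01, 0.01 and -0.01 over all tested genes.

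Over all genes, fold changes against N2 were larger in longer genes. Among the members in GR1395 they followed width only in part. lev-11 (2505 bases) was at -0.23, unc-15 (3424 bases) at -0.02 and ttn-1 (56341 bases) at 0.43. Against that order, myo-3 (6105 bases) was at 0.44 and unc-52 (14277 bases) at -0.03. In the tenth of genes with the greatest width (from 2985 bases), which holds every member but lev-11, the median log2 fold change was 0.13 in HW3826 against N2 and 0.14 in GR1395 against N2, and 13% and 20.4% of genes were called higher. Of the 49 tested genes over 10000 bases, the 4 members unc-22, unc-89, ttn-1 and unc-52 among them, 26 were called higher and 0 lower in HW3826 against N2, with a median of 0.36. In GR1395 against N2, 21 of the 49 were higher and 0 lower, with a median of 0.27. A share of 3 called among these 4 members in HW3826 and 1 of 4 in GR1395 thus stood beside 53.1% and 42.9% of all genes of that width.

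The 10 tested genes over 20000 bases, chosen by width alone after the data were seen, include 7 that are no members, of which 4 were called higher in HW3826 against N2 and 4 in GR1395 against N2. In HW3826 against N2 the axonal ankyrin gene unc-44 rose by 0.47, the presynaptic gene cla-1 by 0.60 and the extracellular giant dig-1 by 0.50. In GR1395 they rose by 0.38, 0.55 and 0.45. All 10 had a positive log2 fold change in HW3826 against N2 and 9 in GR1395 against N2, the exception being the spectraplakin gene vab-10 at -0.08. The sarcomere giants, at 0.34 to 0.44 in HW3826, lay inside the range of the other 7, 0.05 to 0.60.

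**Figure D3:**
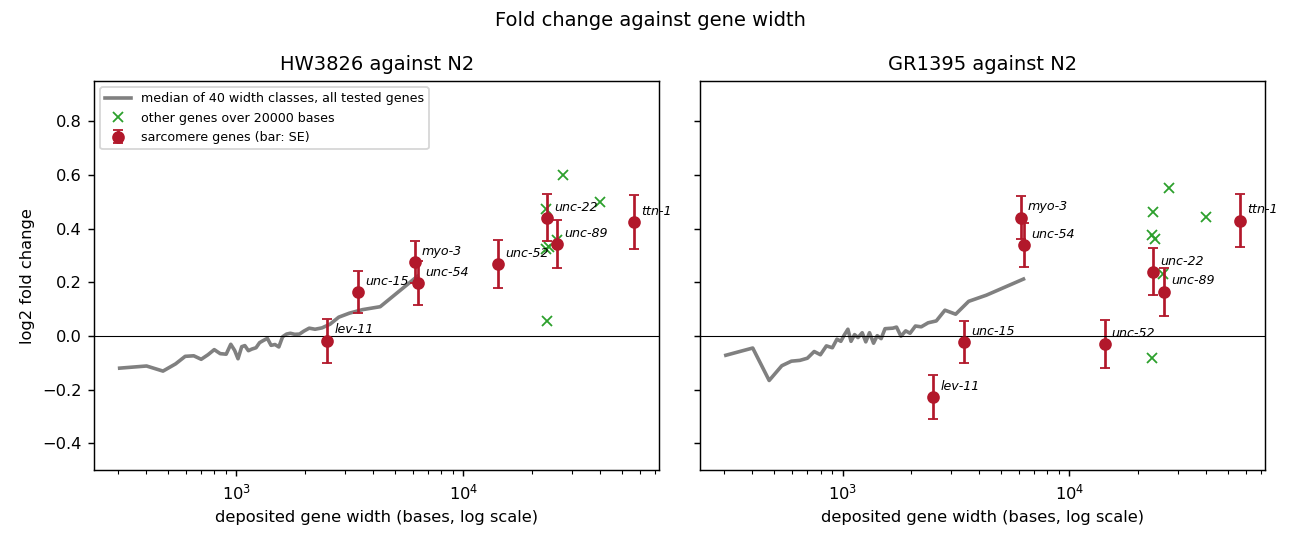
Log2 fold change against N2 (vertical axes) over the deposited gene width in bases (horizontal axes, log scale) in HW3826 and GR1395. Red points are the sarcomere genes with SE, green crosses the other genes over 20000 bases, and the grey line joins the medians of 40 classes of all tested genes by width. The giants unc-22, unc-89 and ttn-1 lie at 0.34 to 0.44 in HW3826 among the other giants.

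The trend was fitted in each library to the tested genes with a positive mean log2 CPM. At the width of ttn-1 its log2 values were 0.214 and 0.262 in HW3826 and 0.132 and 0.094 in GR1395. In N2 they were -0.142 and -0.554. ttn-1 itself deviated from its mean over libraries by 0.117 and 0.170 in HW3826, 0.155 and 0.142 in GR1395, and -0.118 and -0.466 in N2. Its value in N2 replicate 2 was thus the lowest, and the trend there was lower still. At unc-22 the trend was 0.155 and 0.194 in HW3826, 0.097 and 0.086 in GR1395, and -0.428 in N2 replicate 2. The measured deviations of unc-22 were 0.216 and 0.214 in HW3826, 0.019 and 0.009 in GR1395, and -0.112 and -0.347 in N2. At both genes the trend was positive in the 4 array libraries and negative in both N2 libraries, the most so in N2 replicate 2. A difference between strains that follows width and a length trend of the libraries cannot be told apart here, and removing the trend removes both.

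With the trend removed, 0 of the 8 members passed in HW3826 against N2 by edgeR, at adjusted p between 0.188 and 0.977, and 1 had an unadjusted p under 0.05. The log2 differences were 0.01 for unc-22, -0.11 for unc-89 and -0.15 for ttn-1. With the trend held level above the 99th percentile of width (6666 bases), since few genes fix it there, they were 0.20, 0.10 and 0.19, and again 0 members passed (2 at an unadjusted p under 0.05). With N2 replicate 1 as the only N2 library, trend removal also left 0 (0 at an unadjusted p under 0.05), with unc-22 at 0.05. DESeq2 and limma-voom were not run with the trend removed.

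In GR1395 against N2, trend removal divided the sarcomere genes. myo-3 remained higher, by 0.26 (adjusted p = 0.0161), by 0.24 with the trend held level (adjusted p = 0.0228) and by 0.28 with N2 replicate 1 as the only N2 library (adjusted p = 0.0387). unc-54 was at 0.15 (adjusted p = 0.201) and ttn-1 at -0.02 (adjusted p = 0.851), though ttn-1 passed with the trend held level, at 0.22 (adjusted p = 0.0345). unc-52 and lev-11 fell by 0.32 and 0.28 (adjusted p = 0.0115 and 0.026), and both calls ended when N2 replicate 1 was the only N2 library (adjusted p = 0.0733 and 0.203). In HW3826 against GR1395, unc-52 (0.24, adjusted p = 0.0416) and unc-15 (0.20, adjusted p = 0.0465) passed.

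**Figure D4:**
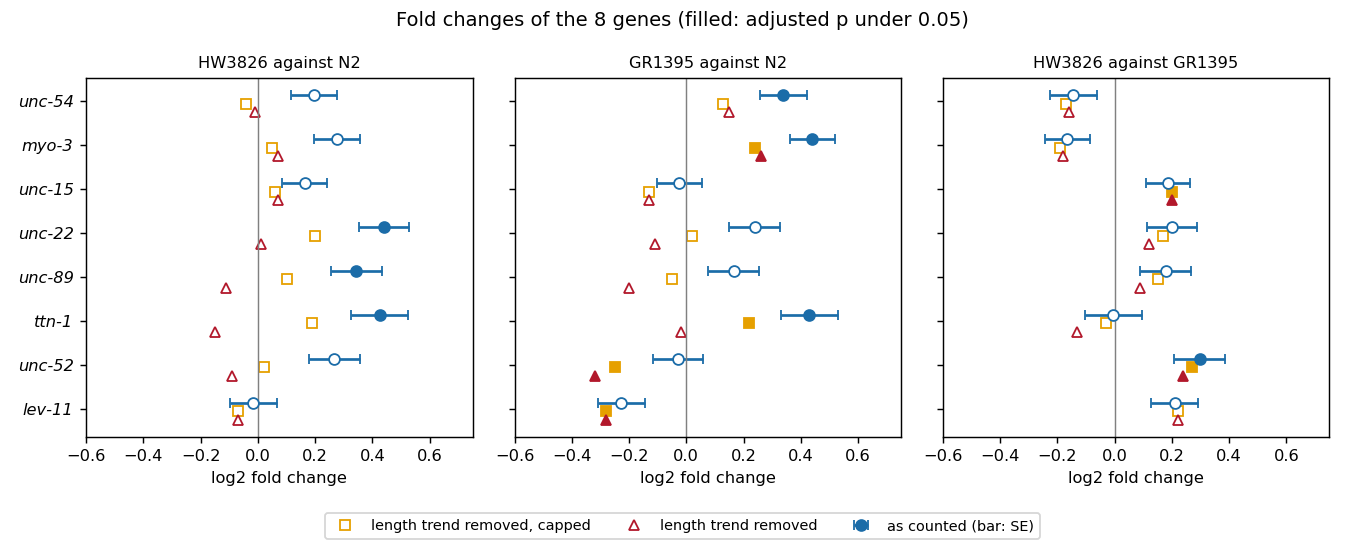
Log2 fold change (horizontal axes) of the 8 genes (rows) in the 3 comparisons, as counted (blue circles, bars are SE), with the length trend removed (red triangles), and with the trend held level above the 99th percentile of width (yellow squares). Filled symbols have an adjusted p under 0.05. In GR1395 against N2 only myo-3 is filled in all 3 forms (0.44, 0.26 and 0.24), in HW3826 against N2 no gene is filled once the trend is removed, and in HW3826 against GR1395 only unc-52 is filled in all 3.

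The genes most like the members across the 6 libraries were named by the correlation of log2 CPM, over 8077 other genes with a mean of at least 10 CPM. The libraries share strain and length trend, so the values describe these libraries. Closest to unc-22 were Y92H12A.5 (r = 0.997), the kettin gene ketn-1 (0.996), ssl-1 (0.995), F07C6.4 (0.994) and mbk-2 (0.994), with widths of 4348 to 16132 bases beside a median of 1628 over all such genes. Closest to unc-54 were rlbp-1 (0.994), wwp-1 (0.992), pigw-1 (0.991), lin-1 (0.989) and acl-12 (0.988), with widths of 1508 to 3001 bases. Among members, unc-89 was near unc-22 (0.987) and myo-3 near unc-54 (0.958). ttn-1 was at 0.899 with unc-22 and 0.819 with unc-54. lev-11 ran against unc-54 (-0.769) and was at -0.229 with unc-22.

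The rest of the muscle was read from 65 further genes in 6 lists, and all 65 were tested. In HW3826 against N2, 5 rose and 0 fell, with a median of 0.06. In GR1395 against N2, 10 rose and 5 fell, with a median of 0.03, or 12 and 3 with library totals as the only scaling. In HW3826 against GR1395, 6 were higher and 1 lower in HW3826, or 4 and 2 with library totals. The shares called, 5 of 65 and 15 of 65 against N2 and 7 of 65 between the array strains, stand beside 6.0%, 16.1% and 14.5% of all genes.

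Of 15 thin filament genes, 5 fell and 2 rose in GR1395 against N2, with a median of -0.16. With library totals as the only scaling, 3 fell and 2 rose. Of all tested genes, 8.15% were called lower and 7.93% higher. The 2 that rose were another troponin T gene, tnt-3 (0.30, adjusted p = 0.0396 by edgeR), and tmd-2 (0.28, adjusted p = 0.0357). In HW3826 against N2, 0 of the 15 passed by edgeR, DESeq2 or limma-voom, and 0 had an unadjusted p under 0.05. The troponin T gene tnt-2 fell by 0.60 (SE 0.07, adjusted p = 0.00031), the troponin I gene tni-1 by 0.37, the actin-interacting protein gene unc-78 by 0.39 and the troponin C gene pat-10 by 0.36. tnt-2 passed in each of the 6 leave-outs. unc-78 and tni-1 missed without GR1395 replicate 1 (adjusted p = 0.0798 and 0.0694), and pat-10 without N2 replicate 2 or either GR1395 library (up to 0.229). Without GR1395 replicate 1, 1 of the 15 fell and 1 rose. The 4 named genes that fell are short, with widths of 768 to 2108 bases. After removal of the length trend, 6 of the 15 fell and 0 rose. HW3826 against GR1395 had 5 of the 15 higher and 0 lower, where 7.33% of all tested genes were called higher. By edgeR tnt-2 was higher by 0.62 (adjusted p = 0.000142) and unc-78 by 0.42 (adjusted p = 0.00376). pat-10 was higher by 0.39 (adjusted p = 0.0291) and tni-1 by 0.29 (adjusted p = 0.0186). No leave-out ended the tnt-2 call. The other 3 named calls ended without GR1395 replicate 1, those of pat-10 and tni-1 also without either HW3826 library, and that of pat-10 also without GR1395 replicate 2.

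The list of thick filament and giant genes held 9. In HW3826 against N2 only ketn-1 rose, a giant of the thin filament anchor with a width of 16132 bases, by 0.49 (adjusted p = 0.00631). It missed without HW3826 replicate 2 (adjusted p = 0.0516) and was at 0.12 with the length trend removed (adjusted p = 0.298), but passed at 0.25 with the trend held level above the 99th percentile of width (adjusted p = 0.0277). In GR1395 the thick filament kinase gene unc-82 rose by 0.44 (adjusted p = 0.00295) and passed in each leave-out, with 0.25 after trend removal (adjusted p = 0.0223). The myosin light chain gene mlc-1 rose by 0.31 in GR1395 (adjusted p = 0.0167). Its near-identical copy mlc-2 leaves the single gene uncertain, and the call ended without either HW3826 or either GR1395 library (up to 0.106). In HW3826 the myosin chaperone gene unc-45 stood 0.28 above GR1395 (adjusted p = 0.0243), and its call ended without either HW3826 library or GR1395 replicate 1. mlc-1 was 0.28 lower in HW3826 than in GR1395 (adjusted p = 0.0248), and that call ended without either HW3826 or either GR1395 library.

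Of 17 dense body and M-line genes, lim-9 rose in HW3826 against N2 (0.30, adjusted p = 0.0435), and pkn-1 (0.38, adjusted p = 0.00717) and uig-1 (0.28, adjusted p = 0.0422) rose in GR1395. The calls of lim-9 and uig-1 ended in all leave-outs but that of N2 replicate 1, and that of pkn-1 without GR1395 replicate 1 (0.0791). With the length trend removed, lim-9 was at 0.17 (adjusted p = 0.146) and uig-1 at 0.14 (adjusted p = 0.157), and neither passed, while pkn-1 passed at 0.24 (adjusted p = 0.0263). Of 16 genes of excitation and calcium, the ryanodine receptor gene unc-68 (width 16181 bases) rose by 0.47 in HW3826 and 0.41 in GR1395, and was at 0.11 in both with the length trend removed. With the trend held level, HW3826 had it at 0.24 (adjusted p = 0.0605). GR1395 had it at 0.20 in that form (adjusted p = 0.068). It passed in none of these forms. Its call ended without either HW3826 library in HW3826 (up to 0.143), and without N2 replicate 2 or either GR1395 library in GR1395 (up to 0.109). The calcium channel gene egl-19 (0.40) and the acetylcholine receptor gene unc-63 (0.45) rose in GR1395, and slo-1 (0.32), a potassium channel gene, in HW3826. Each of these 3 calls ended without N2 replicate 2, and also without either GR1395 library for egl-19 (up to 0.0644) and unc-63 (up to 0.232) and without either HW3826 library for slo-1 (up to 0.191). With the length trend removed, slo-1 was at 0.19 and did not pass (adjusted p = 0.113). egl-19 was at 0.21 and passed (adjusted p = 0.0447), but not with the trend held level (0.19, adjusted p = 0.0633), and unc-63 passed in both forms, at 0.44. In the dystrophin complex the dystrophin gene dys-1 rose by 0.37 in HW3826 (width 11543 bases; 0.06 with the length trend removed and 0.13 with it held level, passing in neither), a call lost when N2 replicate 2 or either HW3826 library was left out (up to 0.168). In GR1395, 0 of 5 passed by edgeR, DESeq2 or limma-voom, with 0, 1 and 1 at an unadjusted p under 0.05. The muscle transcription factor genes hlh-1, unc-120 and hnd-1 passed in no comparison by any of the 3 tools, with at most 1 of the 3 at an unadjusted p under 0.05. For hnd-1 counts were low, 15 and 9 in HW3826, 1 and 4 in GR1395, and 8 and 11 in N2. Its log2 difference in GR1395 against N2 was -2.11 (adjusted p = 0.0876 by edgeR), so the missing call says little there.

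Of 14 basement membrane genes, 0 passed in HW3826 against N2 by edgeR or limma-voom (4 at an unadjusted p under 0.05 by each) and 3 by DESeq2, with a median of 0.10. In GR1395 the hemicentin gene him-4 rose by 0.34 (adjusted p = 0.0168, width 15943 bases), and was at 0.03 with the length trend removed and at 0.12 with the trend held level, passing in neither. Its call ended without N2 replicate 2 or either GR1395 library (up to 0.106). With the trend removed, 0 of the 14 rose and 3 fell in GR1395 against N2, also with it held level, or 1 fell with N2 replicate 1 as the only N2 library. The median of the list in HW3826 against N2 was then -0.04. The collagen IV gene let-2 stood 0.26 higher in HW3826 than in GR1395 (adjusted p = 0.045), and its call ended without either HW3826 or either GR1395 library (up to 0.309).

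**Figure D5:**
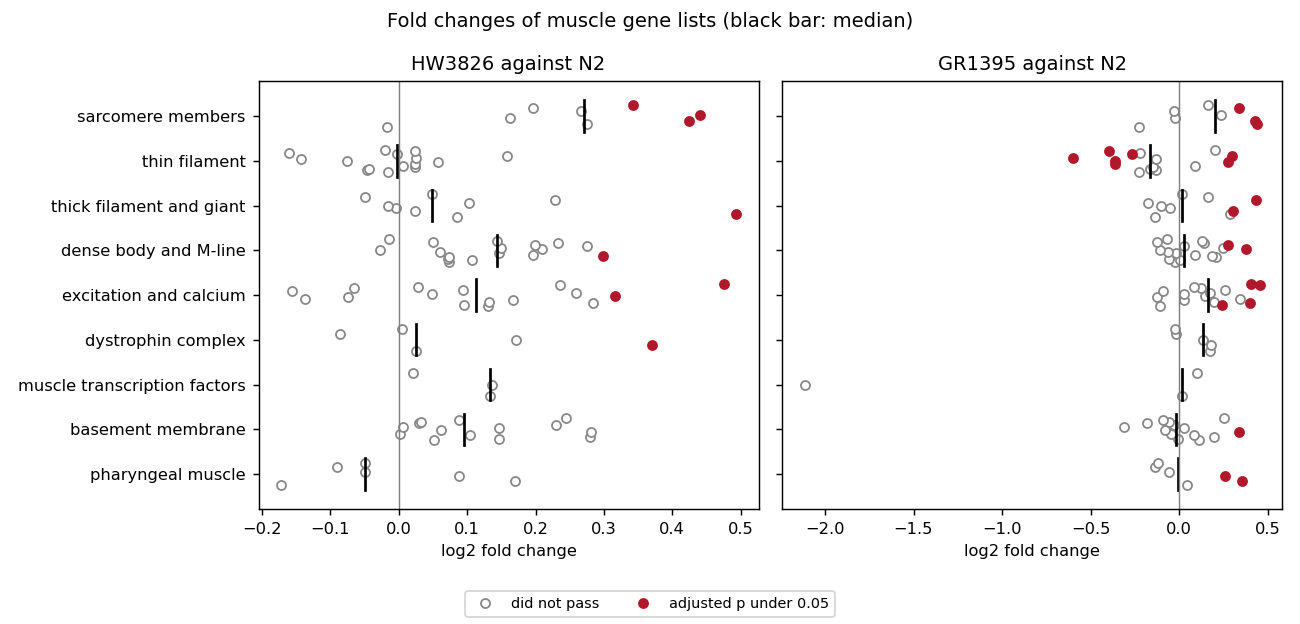
Log2 fold change against N2 (horizontal axes) of the genes (points) of the 8 sarcomere genes and of the other muscle, basement membrane and pharyngeal muscle lists (rows), in HW3826 and GR1395. Red points have an adjusted p under 0.05, black bars are medians, and the panels have different horizontal scales. The thin filament list has a median of 0.00 in HW3826 and -0.16 in GR1395.

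Pharyngeal muscle uses its own myosins. Its 2 heavy chain genes rose in GR1395 with those of body wall muscle, myo-1 by 0.36 (adjusted p = 0.0125) and myo-2 by 0.26 (adjusted p = 0.0468), while the other 4 genes of that list did not pass. With the length trend removed they were at 0.16 and 0.07 and did not pass. The call of myo-1 ended without either GR1395 library (up to 0.0639), and that of myo-2 without any single library other than N2 replicate 1 (up to 0.175). The summed level of the 6 genes was 2559 and 2527 CPM in HW3826, 2769 and 2814 CPM in GR1395, and 2466 and 2335 CPM in N2.

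Markers of other tissues also moved between the strains. Of all tested genes, 6.0% were called in HW3826 against N2 and 16.1% in GR1395 against N2. Of 5 epidermal genes, sym-1 and noah-1 rose in HW3826 (0.44 and 0.45) and fell in GR1395 (by 1.29 and 0.95). The HW3826 call of sym-1 ended without N2 replicate 1 or HW3826 replicate 2, and that of noah-1 without either HW3826 library. No leave-out ended their GR1395 calls. The epidermal sum was 189 and 202 CPM in HW3826, 157 and 170 CPM in GR1395, and 180 and 161 CPM in N2. Of 6 intestinal genes, 1 rose and 1 fell in HW3826, and 1 rose and 2 fell in GR1395. The lower call in HW3826, cpr-6, ended without N2 replicate 2 or HW3826 replicate 2. All intestinal calls in GR1395 ended without GR1395 replicate 1. The intestinal sums were 10050 and 9894 CPM in HW3826, 7049 and 7553 CPM in GR1395, and 9155 and 9237 CPM in N2. Of 5 germline genes, 0 passed in HW3826 by the same tools, with 0 at an unadjusted p under 0.05, and 2 fell in GR1395, with sums between 77.2 and 113 CPM. Of 7 neuronal genes, 0 passed against N2 in either strain by edgeR, DESeq2 or limma-voom (1 or 2 at an unadjusted p under 0.05), with sums between 1276 and 1452 CPM. In HW3826 against GR1395, 3 intestinal, 2 epidermal and 2 germline genes were called higher, where 14.5% of all genes were called. Neither germline call, mex-5 or pgl-1, held in every leave-out, nor did that of the intestinal gene asp-1. The neuronal gene snb-1 was 0.26 lower in that comparison (adjusted p = 0.0349 by edgeR). Its call ended without either HW3826 or either GR1395 library. No marker was at 0 in all libraries, and nos-2 had 0 counts in at least 1. The part of tissue makeup in the sarcomere differences was not tested.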

How the data were processed

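Sources were the labels, the count table and an annotation. The table holds whole-number counts for each gene and library and a gene width in bases, as the authors deposited it. The submitters' processing notes name ce11 and HISAT2 1.10.0; for counting tool, annotation and strand use, nothing is given in the sources used here. Gene names and coordinates came from Ensembl release 115 of WBcel235, the assembly behind ce11, and 20105 of 20190 genes matched by identifier.

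Counts were tested with edgeR 4.0.16 (quasi-likelihood, robust, TMM, default filter, 1 coefficient per strain, all 6 libraries; limma 3.58.1, R 4.3.3) and adjusted by Benjamini and Hochberg over 15024 genes. This left 3 residual degrees of freedom, and the scripts were tested on simulated data. The length trend was a loess fit (span 0.3) of each library's log2 deviation on log2 width. It was fitted to tested genes with a positive mean log2 CPM and used as an offset for all tested genes. A floor of 3 counts was 0.0546 to 0.0704 CPM, which covers counting error only. Libraries of a strain differed beyond counting noise (chi-square per degree of freedom 8.88 to 23.8). Alternatives included DESeq2 1.42.0, limma-voom, other scalings, leave-outs and a replicate block.

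Named genes were the 8 members, up to 4 called genes per list by size of change, and the 5 genes most like unc-22 and unc-54. The thin filament genes that rose in GR1395 were named as well. Members and lists were chosen with earlier results of these data known. No sequences are shown.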

Additional observations from a re-analysis of the deposited data

How the results depend on the processing

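With 2 libraries per strain, leaving out 1 moved many counts of called genes, and so did the length trend, whose origin was not tested. In 480 recomputed fold changes of the members, 40 changed sign, some of them with a change of call. Of those that kept their direction, 369 kept their side of the threshold, 39 lost a call and 32 gained one. The labels do not say that replicate numbers pair the libraries, so the replicate block has no stated basis in the design. Across 15024 genes the r of same-numbered deviations was -0.184 for HW3826 and N2, 0.014 for GR1395 and N2, and 0.01 for HW3826 and GR1395. These values do not settle whether libraries were handled together.

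For HW3826 against N2, called members went to 5 (DESeq2) and to 0 with the length trend removed, in the capped, replicate block, span 0.6 and single N2 library forms alike, against 3, and ranged from 0 to 5 over the leave-outs. Other muscle genes were 3 with the replicate block, and with the length trend removed 0 (uncapped, with block, span 0.6, single N2 library) or 1 (capped), against 5, with 0 to 12 over the leave-outs. All genes were 594 with the replicate block, against 902, with 378 to 1191 over the leave-outs.

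For GR1395 against N2, called members were 1 with the length trend removed and N2 replicate 1 as the only N2 library, against 3, with 1 to 6 over the leave-outs. Other muscle genes were 8 with the replicate block, 8 with only these strains and 5 with the single N2 library, against 15, with 3 to 23 over the leave-outs. All genes were 968 with the single N2 library, against 2416, with 656 to 3428 over the leave-outs.

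For HW3826 against GR1395, called members were 0 with library totals, with the replicate block and with block and trend removed, 2 with the trend removed or capped, and 4 with the single N2 library or only these strains, against 1, with 0 to 4 over the leave-outs. Other muscle genes were 4 with the replicate block, 13 with the trend removed, capped or at span 0.6, 15 with the single N2 library and 16 with only these strains, against 7, with 1 to 16 over the leave-outs. All genes ranged from 745 to 2940 over the leave-outs, against 2179.

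Signs changed mostly with the length trend removed. In HW3826 against N2, unc-54 was at -0.01 (also with block and span 0.6) or -0.04 (capped). unc-89 was at -0.11 (also with block), -0.09 (span 0.6) or -0.06 (single N2 library), and ttn-1 at -0.15, -0.15, -0.14 and -0.12 in the same forms. unc-52 was at -0.09, -0.08, -0.07 and -0.03. lev-11 was at 0.06 without N2 replicate 2 and 0.04 with the single N2 library. In GR1395 against N2, unc-22 was at -0.11 (also with block), -0.12 (span 0.6) or -0.06 (single N2 library), unc-89 at -0.20 (also with block), -0.21, -0.15 and -0.05 (capped), and ttn-1 at -0.02 (also with block) or -0.04 (span 0.6). There unc-15 was at 0.02 with library totals and 0.01 without N2 replicate 1, and unc-52 at 0.01 with library totals, 0.05 without N2 replicate 1 and 0.06 without GR1395 replicate 1 (range over the leave-outs -0.13 to 0.06). In HW3826 against GR1395, ttn-1 was at 0.00 with RLE factors, DESeq2, no filter or without GR1395 replicate 1, and at 0.03 without HW3826 replicate 1.

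With the HW3826 numbers crossed in the replicate block, a setting chosen after seeing the data as was the single N2 library, 4, 3 and 1 members and 984, 2650 and 2394 genes were called.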
